A study of Mus musculus with 7 samples.

Results

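The 38 genes described here encode integrin chains, laminin chains and other components or receptors of the basement membrane. They were chosen by gene symbol: 12 integrin alpha chains, 7 integrin beta chains, 10 laminin chains and 9 further genes. All 38 were found, once each, among the 38579 gene entries of the deposited table. The values come from RNA sequencing of 7 libraries of primary fetal mammary cells sorted from CD1 mouse embryos at E17.5, shortly before birth. Each of 2 sorting strategies gave a fraction labelled fetal mammary stem cells (fMaSC) and a fraction labelled stroma. One strategy combined a Sox10-Venus fluorescent reporter with the epithelial surface protein EpCAM and yielded Sox10+EpCAM+ fMaSC, with 2 libraries, and EpCAM-negative stroma, with 1. The column names give these libraries as lineage-negative and the stromal library as Sox10-negative too. The other used the surface proteins CD24 and CD49f on lineage-negative cells and yielded CD24+CD49f+ fMaSC and CD24low stroma (2 libraries each). CD49f is the protein product of Itga6, so the level of that gene in the second strategy is partly set by the sort. The labels call the libraries biological replicates without naming the animals or litters behind them, so p-values measure the spread between these libraries. The EpCAM-negative stroma group is a single library and its spread was taken from the other groups.

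Basement membranes are thin sheets of matrix on which epithelia rest and which also wrap muscle, fat, nerve and vessel cells. Their core is a laminin network, built from trimers of an alpha, a beta and a gamma chain, and a type IV collagen network, with nidogens and the heparan sulphate proteoglycans perlecan and agrin attached to both. Cells hold this sheet through integrins, which are pairs of an alpha and a beta chain, and through dystroglycan. In the mammary gland, contact with laminin through integrins is known for its part in epithelial polarity, in the basal cell layer and in the response to lactogenic hormones.

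An estimate from single-transcript genes gave depths of 25 M to 38 M fragments per library, so that a single fragment of a 2 kb transcript is worth 0.0132 to 0.0200 FPKM. FPKM (fragments per kilobase of transcript and per 1 M fragments) is a level per transcript length. The labelled cell types were checked on 8 epithelial and 7 fibroblast markers. The epithelial list includes Epcam, whose level in the Sox10 and EpCAM sort is partly set by the sort. Epcam had 219 and 230 FPKM in Sox10+EpCAM+ fMaSC and 1.19 FPKM in EpCAM-negative stroma. Summed over the epithelial list, the level was 764 and 902 FPKM in Sox10+EpCAM+ fMaSC and 544 and 356 FPKM in CD24+CD49f+ fMaSC, against 7.16 FPKM in EpCAM-negative stroma and 3.44 and 2.70 FPKM in CD24low stroma. Summed over the fibroblast list, it was 33.8 and 52.4 FPKM in Sox10+EpCAM+ fMaSC and 1476 and 2398 FPKM in CD24+CD49f+ fMaSC, against 4529 FPKM in EpCAM-negative stroma and 5190.5 and 5092 FPKM in CD24low stroma. The CD24+CD49f+ fMaSC libraries thus carried both marker lists, with all 7 fibroblast markers at 1 FPKM or more in each. In Sox10+EpCAM+ fMaSC 6 of the 7 reached 1 FPKM in both libraries. The summed Schwann cell and melanoblast markers of CD24+CD49f+ fMaSC, 187 and 117 FPKM, also lay above the 25.8 and 39.5 FPKM of Sox10+EpCAM+ fMaSC, and 8 of the 10 markers reached 1 FPKM in both CD24+CD49f+ fMaSC libraries, against 6 in both Sox10+EpCAM+ fMaSC libraries. The alpha-globin gene Hba-a1 had 1984 and 217 FPKM in the CD24+CD49f+ fMaSC libraries and 58.2 FPKM or less in the other 5. Mitochondrial genes held 19.00% and 15.6% of the summed FPKM in Sox10+EpCAM+ fMaSC and 17.9% and 9.94% in CD24+CD49f+ fMaSC, against 6.23% in EpCAM-negative stroma and 10.9% and 17.7% in CD24low stroma. The summed FPKM was 738869 and 607325 in Sox10+EpCAM+ fMaSC and 752737 and 424984 in CD24+CD49f+ fMaSC, against 378952 in EpCAM-negative stroma and 387955 and 547649 in CD24low stroma, and the part of the mitochondrial share in the comparisons was not tested. In such sorted bulk samples, fewer cells of a type and less RNA per cell cannot be told apart.

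The laminin-binding integrin chains Itga3, Itga6 and Itgb4 and the laminin chains Lama1, Lama3 and Lama5 were higher in fMaSC than in stroma under both sorts, while the nidogens, perlecan, Frem1, the laminin chains Lama2, Lama4 and Lamb2 and the integrin chains Itga1, Itga5, Itga7, Itgb3 and Itgb5 were lower in Sox10+EpCAM+ fMaSC than in EpCAM-negative stroma. The hemidesmosome integrin chain Itgb4 averaged 16.4 ± 1.61 FPKM in Sox10+EpCAM+ fMaSC and 12.9 ± 2.48 FPKM in CD24+CD49f+ fMaSC, against 0.503 ± 0.407 FPKM in CD24low stroma (SD, n = 2 each). Nid1, a nidogen, averaged 3.80 ± 1.30 FPKM in Sox10+EpCAM+ fMaSC and 108 ± 52.6 FPKM in CD24+CD49f+ fMaSC, against 257 ± 29.99 FPKM in CD24low stroma (SD, n = 2 each). Of the 38 genes 34 reached 1 FPKM in at least 2 libraries and were tested with limma on log2(FPKM + 1), a scale on which folds of low genes are understated. The 4 that did not were Itga10, Itgb6, Itgb7 and Lamc3. Set against EpCAM-negative stroma, Sox10+EpCAM+ fMaSC had 12 genes higher and 12 lower at an adjusted p under 0.05, where 12.5% and 13.6% of all 14418 tested genes were called in those directions. For CD24+CD49f+ fMaSC against CD24low stroma, 10 genes were higher and 1 was lower, beside 7.78% and 2.94% of all tested genes. With both sorts in a single fit, 13 genes were higher and 6 lower in fMaSC than in stroma, beside 15.6% and 9.5%. The median log2 fold over the 34 genes was -0.12, 0.19 and 0.08 in these 3 comparisons, against 0.09, 0.13 and 0.12 over all tested genes. Agrn, Itga2, Itga3, Itga6, Itgb4, Itgb8, Lama1, Lama3, Lama5 and Npnt were called higher in both sorts, and Itga1 was called lower in both. The call of Itga6 in the CD24 and CD49f sort is partly set by the sort. Itga2, Itga3, Itgb4, Itgb8, Lama1, Lama3, Npnt and Frem2 stayed below 1 FPKM in each stroma library. They passed the filter at 1 FPKM through fMaSC libraries alone, so their calls are not independent of where the genes were high. No gene was called in opposite directions. Over all 38 genes, the 4 fMaSC libraries lay wholly above the 3 stroma libraries for 12 and wholly below them for 7. Among the 34 tested genes, 12 lay above and 6 below, while 23.3% and 13.7% of all tested genes did so. With CD24+CD49f+ fMaSC left out, chosen after the data were seen, 15 genes were higher and 13 lower in Sox10+EpCAM+ fMaSC than in EpCAM-negative stroma, beside 22.1% and 19.2% of all genes tested then.

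Some of these counts depended on single libraries and on scaling, and the shares called over all tested genes moved too. Leaving out Sox10+EpCAM+ fMaSC replicate 1 brought the comparison of Sox10+EpCAM+ fMaSC with EpCAM-negative stroma to 15 called genes, 9 higher and 6 lower, beside 5.8% and 5.96% of all tested genes. The CD24 and CD49f sort had 7 higher and none lower without CD24low stroma replicate 1, beside 3.48% and 0.645% of all tested genes, and 4 higher and 1 lower without CD24low stroma replicate 2, beside 2.59% and 0.384%. Without the EpCAM-negative stroma library the pooled comparison is that of the CD24 and CD49f sort alone, with 11 called genes, so a pooled call that was lost without this library is one that the CD24 and CD49f sort did not give by itself. Rescaled to TPM, in which each library has the same total, the data gave 4 higher and 11 lower genes in the Sox10 and EpCAM sort, beside 4.12% and 11.2% of all tested genes. In the CD24 and CD49f sort they gave 4 higher and none lower, beside 3.0% and 0.853%. The 4 were Itga3, Itgb4, Lama1 and Lama5 in the Sox10 and EpCAM sort and Itga3, Itgb4, Itgb8 and Lama5 in the other. With quantile scaling the CD24 and CD49f sort had 8 higher and 5 lower genes, beside 5.93% and 5.35%. With no filter on low values, Dag1, Frem1, Frem2, Itgb5, Lama4 and Lamb2 lost their calls in the Sox10 and EpCAM sort, and Itga2, Lama1 and Lama3 in the CD24 and CD49f sort. In the pooled fit, Dag1, Itga7, Itga8, Itgb3, Itgb5 and Nid1 lost theirs under at least 1 of the 4 alternative settings, with adjusted p-values of up to 0.414.

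**Figure D1:**
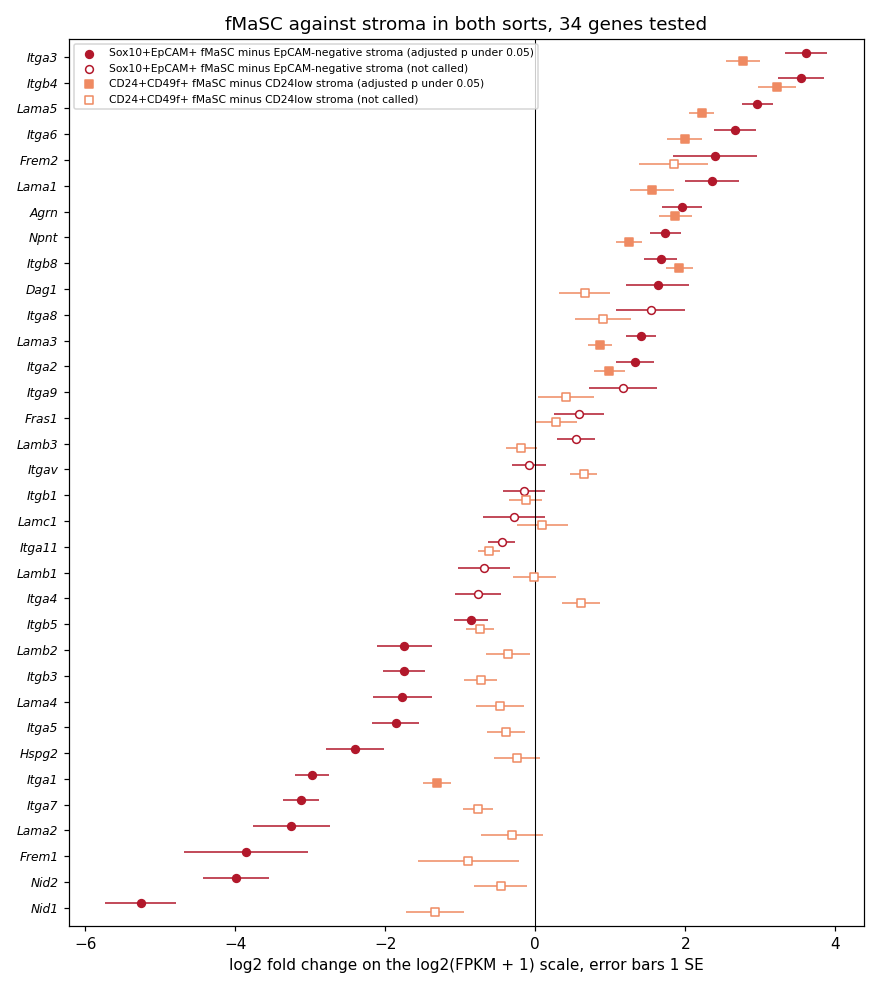
log2 fold change of fMaSC against stroma on the log2(FPKM + 1) scale (x axis) for the 34 tested genes (y axis), with bars of 1 SE. Filled symbols have an adjusted p under 0.05. The circles of the Sox10 and EpCAM sort spread from -5.26 for Nid1 to 3.61 for Itga3, while of the squares of the CD24 and CD49f sort below zero the one for Itga1 at -1.31 alone is filled.

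The laminin-binding integrins separated the compartments. Itga6 (chr2:71745616-71858416, GRCm38), which pairs with Itgb1 in general laminin receptors and with Itgb4 in hemidesmosomes, was the most abundant alpha chain in each of the 4 fMaSC libraries. Itga6 had 115 and 146 FPKM in Sox10+EpCAM+ fMaSC and 77.2 and 99.95 FPKM in CD24+CD49f+ fMaSC, against 19.6 FPKM in EpCAM-negative stroma and 22.3 and 20.5 FPKM in CD24low stroma. All 4 fMaSC libraries lay above all 3 stroma libraries, and the log2 fold was 2.26 (SE 0.21, adjusted p = 0.000785) over both sorts. CD24+CD49f+ fMaSC were sorted on CD49f, the protein of Itga6, so their values and their part in the pooled fold are partly set by the sort. Itga3 (chr11:95044474-95076801), whose integrin binds laminins with the Lama3 or Lama5 chain, was lower in level but steeper in its fold. Itga3 had 13.1 and 15.3 FPKM in Sox10+EpCAM+ fMaSC and 5.57 and 8.73 FPKM in CD24+CD49f+ fMaSC, against 0.241 FPKM in EpCAM-negative stroma and 0.243 and 0.106 FPKM in CD24low stroma. Its stromal values were close to 0, and its log2 fold was 3.11 (SE 0.24, adjusted p = 0.000362). Itgb4 (chr11:115974709-116008412) anchors keratin filaments to the basement membrane through hemidesmosomes. Itgb4 had 15.3 and 17.6 FPKM in Sox10+EpCAM+ fMaSC and 11.1 and 14.6 FPKM in CD24+CD49f+ fMaSC, against 0.493 FPKM in EpCAM-negative stroma and 0.791 and 0.215 FPKM in CD24low stroma. The groups did not overlap, with a log2 fold of 3.54 (SE 0.30, adjusted p = 0.000833) in the Sox10 and EpCAM sort and 3.22 (SE 0.25, adjusted p = 0.00129) in the CD24 and CD49f sort. These 3 calls held in the pooled fit without each library and under each alternative setting. Itga6 lost its call in the CD24 and CD49f sort without CD24low stroma replicate 2 (adjusted p = 0.0557). Itga6 and Itgb4 are also expressed by Schwann cells, and the part of the Schwann cell and melanoblast markers of CD24+CD49f+ fMaSC in these values was not tested.

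Itga7 (chr10:128933813-128958277), the laminin-binding chain best known from skeletal and smooth muscle, took the opposite side. Itga7 had 0.208 and 0.333 FPKM in Sox10+EpCAM+ fMaSC and 4.51 and 3.10 FPKM in CD24+CD49f+ fMaSC, against 10.1 FPKM in EpCAM-negative stroma and 7.44 and 6.77 FPKM in CD24low stroma. Its fMaSC libraries all lay below its stroma libraries, and those of Sox10+EpCAM+ fMaSC lay below 1 FPKM. The log2 fold was -3.13 (SE 0.24, adjusted p = 0.000618) in the Sox10 and EpCAM sort, and -0.77 (SE 0.20, adjusted p = 0.0643) in the CD24 and CD49f sort, where it was not called. The pooled fold was -1.71 (SE 0.46, adjusted p = 0.0384), a call that was lost without either Sox10+EpCAM+ fMaSC library, without the EpCAM-negative stroma library or without CD24low stroma replicate 1, with adjusted p-values of up to 0.0969. Summed skeletal muscle markers were 0.375 and 0.645 FPKM in Sox10+EpCAM+ fMaSC and 7.04 and 4.09 FPKM in CD24+CD49f+ fMaSC, against 15.5 FPKM in EpCAM-negative stroma and 12.6 and 15.2 FPKM in CD24low stroma. Summed pericyte and smooth muscle markers were 57.9 and 67.9 FPKM in Sox10+EpCAM+ fMaSC and 128 and 63.9 FPKM in CD24+CD49f+ fMaSC, against 259 FPKM in EpCAM-negative stroma and 215 and 225 FPKM in CD24low stroma. Of the 9 skeletal muscle markers, those at 1 FPKM or more in each library of a group numbered 0 in Sox10+EpCAM+ fMaSC and 1 in CD24+CD49f+ fMaSC, against 3 in both stroma groups. Of the 8 pericyte and smooth muscle markers they numbered 2 in Sox10+EpCAM+ fMaSC and 7 in CD24+CD49f+ fMaSC, against 8 in both stroma groups. Their part in the level of Itga7 was not tested.

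Among the beta chains, Itgb1, the shared partner of most alpha chains, was the most abundant in each library. Itgb1 had 101 and 123 FPKM in Sox10+EpCAM+ fMaSC and 106 and 117 FPKM in CD24+CD49f+ fMaSC, against 124 FPKM in EpCAM-negative stroma and 121 and 122 FPKM in CD24low stroma. The groups overlapped, and the pooled log2 difference was -0.14, with a 95% interval of -0.54 to 0.26. Itgb8, which with Itgav activates latent TGF-beta, was on the fMaSC side. Itgb8 had 3.33 and 4.21 FPKM in Sox10+EpCAM+ fMaSC and 4.38 and 4.20 FPKM in CD24+CD49f+ fMaSC, against 0.488 FPKM in EpCAM-negative stroma and 0.527 and 0.275 FPKM in CD24low stroma. The log2 fold was 1.67 (SE 0.22, adjusted p = 0.00342) in the Sox10 and EpCAM sort and 1.92 (SE 0.18, adjusted p = 0.00238) in the CD24 and CD49f sort. Itgb3 and Itgb5 pair with Itgav in receptors for vitronectin and other ligands with the Arg-Gly-Asp (RGD) motif, and both were lower in Sox10+EpCAM+ fMaSC than in EpCAM-negative stroma. Itgb3 had 3.55 and 3.70 FPKM in Sox10+EpCAM+ fMaSC and 6.06 and 8.36 FPKM in CD24+CD49f+ fMaSC, against 14.5 FPKM in EpCAM-negative stroma and 14.6 and 10.6 FPKM in CD24low stroma. Its log2 fold was -1.75 (SE 0.28, adjusted p = 0.00646) in the Sox10 and EpCAM sort and -1.14 (SE 0.25, adjusted p = 0.021) over both sorts. The pooled call of Itgb3 was lost without any of 5 of the 7 libraries, CD24+CD49f+ fMaSC replicate 2 and CD24low stroma replicate 2 being the exceptions, with adjusted p-values of up to 0.102. Itgb5 had 12.7 and 14.5 FPKM in Sox10+EpCAM+ fMaSC and 13.8 and 16.5 FPKM in CD24+CD49f+ fMaSC, against 25.5 FPKM in EpCAM-negative stroma and 28.01 and 23.9 FPKM in CD24low stroma. Over both sorts the log2 fold of Itgb5 was -0.79 (SE 0.14, adjusted p = 0.0101), a call lost without the EpCAM-negative stroma library (adjusted p = 0.058). In the Sox10 and EpCAM sort its fold was -0.86 (SE 0.23, adjusted p = 0.039), lost without either Sox10+EpCAM+ fMaSC or either CD24low stroma library (adjusted p of up to 0.23).

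Itgb6 and Itgb7 stayed below 1 FPKM in each library and were not tested. Itgb6, an epithelial partner of Itgav, had 0.881 and 0.808 FPKM in Sox10+EpCAM+ fMaSC and 0.227 and 0.353 FPKM in CD24+CD49f+ fMaSC, against 0.0463 FPKM in EpCAM-negative stroma and 0.590 and 0.0608 FPKM in CD24low stroma. Itgb7, a lymphocyte chain, was at 0.198 FPKM or less. As a share of the summed FPKM of the 7 beta chains, a quantity that does not change when a library is rescaled, Itgb1 held 72.7% to 77.7% in the 7 libraries. The share of Itgb4 was 11.2% and 10.7% in Sox10+EpCAM+ fMaSC and 7.88% and 9.07% in CD24+CD49f+ fMaSC, against 0.298% in EpCAM-negative stroma and 0.476% and 0.137% in CD24low stroma. That of Itgb3 was 2.59% and 2.26% in Sox10+EpCAM+ fMaSC and 4.29% and 5.18% in CD24+CD49f+ fMaSC, against 8.80% in EpCAM-negative stroma and 8.81% and 6.74% in CD24low stroma.

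The collagen-binding alpha chains differed between the compartments. Itga1 and Itga2 both bind collagens with Itgb1, Itga1 with a known preference for type IV and Itga2 for fibrillar collagen. Itga2 had 1.68 and 1.94 FPKM in Sox10+EpCAM+ fMaSC and 0.944 and 1.72 FPKM in CD24+CD49f+ fMaSC, against 0.115 FPKM in EpCAM-negative stroma and 0.221 and 0.0987 FPKM in CD24low stroma. The fMaSC libraries all lay above the stroma libraries, with a pooled log2 fold of 1.13 (SE 0.18, adjusted p = 0.00625). Itga1 had 0.115 and 0.157 FPKM in Sox10+EpCAM+ fMaSC and 1.63 and 1.83 FPKM in CD24+CD49f+ fMaSC, against 7.96 FPKM in EpCAM-negative stroma and 6.75 and 4.90 FPKM in CD24low stroma. All fMaSC libraries lay below all stroma libraries, with a log2 fold of -2.98 (SE 0.23, adjusted p = 0.000597) in the Sox10 and EpCAM sort and -1.31 (SE 0.19, adjusted p = 0.00987) in the CD24 and CD49f sort. Itga1 was the only gene of the 34 called lower in both sorts. Within the summed FPKM of the 4 collagen-binding alpha chains, Itga2 held 66.9% and 68.5% in Sox10+EpCAM+ fMaSC and 26.4% and 38.3% in CD24+CD49f+ fMaSC, against 1.23% in EpCAM-negative stroma and 2.50% and 1.56% in CD24low stroma. Itga1 held 4.56% and 5.56% in Sox10+EpCAM+ fMaSC and 45.6% and 40.97% in CD24+CD49f+ fMaSC, against 85.1% in EpCAM-negative stroma and 76.5% and 77.4% in CD24low stroma. Itga11, a fibroblast collagen receptor, had 0.174 and 0.286 FPKM in Sox10+EpCAM+ fMaSC and 0.304 and 0.415 FPKM in CD24+CD49f+ fMaSC, against 0.679 FPKM in EpCAM-negative stroma and 1.15 and 1.01 FPKM in CD24low stroma. Its pooled fold was -0.55 (SE 0.13, adjusted p = 0.0276). Only the CD24low stroma libraries brought Itga11 past the filter at 1 FPKM, so this call is not independent of where the gene was high. Without either of those libraries Itga11 was not tested. Itga10, a cartilage collagen receptor, was at 0.70 FPKM or less and was not tested. The pooled call of Itga11 was lost without either Sox10+EpCAM+ fMaSC library, the EpCAM-negative stroma library or CD24+CD49f+ fMaSC replicate 1 (adjusted p of up to 0.0892). In the CD24 and CD49f sort, the call of Itga1 was lost without CD24low stroma replicate 1 (adjusted p = 0.0577), and that of Itga2 without either Sox10+EpCAM+ fMaSC or either CD24low stroma library (up to 0.182). In the Sox10 and EpCAM sort, Itga2 lost its call without either Sox10+EpCAM+ fMaSC library (up to 0.0717).

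The alpha chains that bind RGD ligands did not move as a group. Itga5, the fibronectin receptor chain, was lower in Sox10+EpCAM+ fMaSC than in EpCAM-negative stroma. Itga5 had 7.26 and 8.03 FPKM in Sox10+EpCAM+ fMaSC and 14.2 and 22.2 FPKM in CD24+CD49f+ fMaSC, against 30.4 FPKM in EpCAM-negative stroma and 26.8 and 20.7 FPKM in CD24low stroma. The Sox10+EpCAM+ fMaSC libraries lay below the other 5, and the log2 fold was -1.86 (SE 0.31, adjusted p = 0.00793) in the Sox10 and EpCAM sort, lost without Sox10+EpCAM+ fMaSC replicate 1 (adjusted p = 0.0571). In the CD24 and CD49f sort it was -0.39 (SE 0.25, adjusted p = 0.412). Itgav, a partner of Itgb1, Itgb3, Itgb5, Itgb6 and Itgb8, gave no call. Itgav had 12.4 and 14.7 FPKM in Sox10+EpCAM+ fMaSC and 16.5 and 15.4 FPKM in CD24+CD49f+ fMaSC, against 14.4 FPKM in EpCAM-negative stroma and 11.03 and 8.82 FPKM in CD24low stroma. The groups overlapped, with a pooled difference of 0.35 (SE 0.20, adjusted p = 0.21). Itga8, which binds nephronectin, lay on the fMaSC side but was called in neither sort alone. In the Sox10 and EpCAM sort its log2 fold was 1.54 (SE 0.46, adjusted p = 0.0566). In the CD24 and CD49f sort its fold was 0.90 (SE 0.38, adjusted p = 0.204). Itga8 had 7.89 and 9.95 FPKM in Sox10+EpCAM+ fMaSC and 4.46 and 6.38 FPKM in CD24+CD49f+ fMaSC, against 2.40 FPKM in EpCAM-negative stroma and 3.94 and 1.33 FPKM in CD24low stroma. The groups did not overlap, and the pooled fold was 1.16 (SE 0.30, adjusted p = 0.0338), lost without either Sox10+EpCAM+ fMaSC library, the EpCAM-negative stroma library or CD24low stroma replicate 2 (adjusted p of up to 0.203). Over the summed FPKM of the 12 alpha chains, the laminin-binding chains held 75.8% and 77.4% in Sox10+EpCAM+ fMaSC and 65.9% and 64.5% in CD24+CD49f+ fMaSC, against 32.5% in EpCAM-negative stroma and 33.8% and 39.6% in CD24low stroma. Itga6 made up most of this share, and in CD24+CD49f+ fMaSC its level is partly set by the sort. The RGD-binding chains held 16.3% and 15.7% in Sox10+EpCAM+ fMaSC and 26.6% and 25.4% in CD24+CD49f+ fMaSC, against 51.4% in EpCAM-negative stroma and 47.1% and 44.7% in CD24low stroma.

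Itga4 and Itga9, related chains that bind fibronectin, VCAM1 or tenascin, gave no call for fMaSC against stroma in either sort. Itga9 had 10.7 and 11.2 FPKM in Sox10+EpCAM+ fMaSC and 4.78 and 10.1 FPKM in CD24+CD49f+ fMaSC, against 4.30 FPKM in EpCAM-negative stroma and 6.72 and 3.68 FPKM in CD24low stroma. The pooled log2 fold of Itga9 was 0.71 (SE 0.31, adjusted p = 0.125). Itga4 had 0.146 and 0.288 FPKM in Sox10+EpCAM+ fMaSC and 1.63 and 2.86 FPKM in CD24+CD49f+ fMaSC, against 1.07 FPKM in EpCAM-negative stroma and 1.43 and 0.800 FPKM in CD24low stroma. The highest values of Itga4 were those of CD24+CD49f+ fMaSC, and the lowest those of Sox10+EpCAM+ fMaSC. Its fold was -0.77 (SE 0.31, adjusted p = 0.12) in the Sox10 and EpCAM sort and 0.61 (SE 0.25, adjusted p = 0.201) in the CD24 and CD49f sort.

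**Figure D2:**
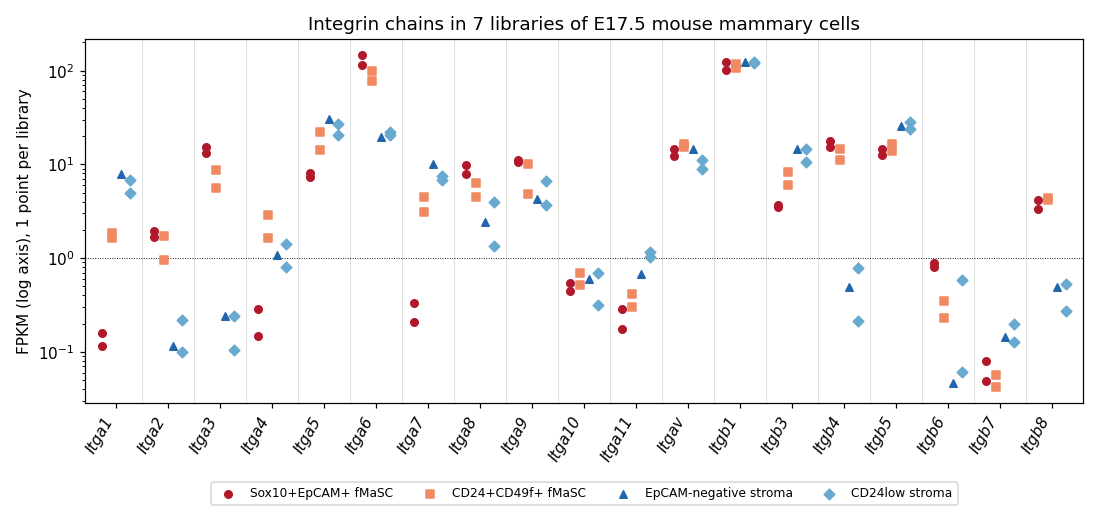
FPKM on a log axis (y) of the 19 integrin chains (x), 1 point per library, with circles and squares for the fMaSC groups, triangles and diamonds for the stroma groups and a dotted line at 1 FPKM. Itga6 lies at 77.2 FPKM or more in fMaSC and at 22.3 FPKM or less in stroma, while the 7 points of Itgb1 lie between 101 and 124 FPKM.

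Promoter sequences are shown for 4 genes whose folds are described here, a pair from each side: Lama5 and Itgb8, called higher in fMaSC in both sorts, and Lama2 and Nid1, called lower in Sox10+EpCAM+ fMaSC than in EpCAM-negative stroma. The sequences are RefSeq's for GRCm38.p6, 250 bases before to 50 after the RefSeq start, and run 5′ to 3′ on the gene's strand. For Itgb8 that start lies 526 bases inside the gene as the deposited table places it, and for the other 3 both starts are the same. Capitals mark the 6-base E-box CACCTG or the GC box GGGCGG on either strand. E-boxes of this form are known to be bound by Snail and Zeb repressors, and GC boxes by Sp factors. Neighbouring matches of the motifs can share an end base, and a match is a description of the sequence alone.
Lama5, chr2:180225810-180226109, minus strand: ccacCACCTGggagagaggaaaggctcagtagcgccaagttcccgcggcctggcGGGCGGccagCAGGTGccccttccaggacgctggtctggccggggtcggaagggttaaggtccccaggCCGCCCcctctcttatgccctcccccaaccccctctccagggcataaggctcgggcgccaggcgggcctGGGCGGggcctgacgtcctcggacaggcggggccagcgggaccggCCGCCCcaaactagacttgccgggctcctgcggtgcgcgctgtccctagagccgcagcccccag
Itgb8, chr12:119238227-119238526, minus strand: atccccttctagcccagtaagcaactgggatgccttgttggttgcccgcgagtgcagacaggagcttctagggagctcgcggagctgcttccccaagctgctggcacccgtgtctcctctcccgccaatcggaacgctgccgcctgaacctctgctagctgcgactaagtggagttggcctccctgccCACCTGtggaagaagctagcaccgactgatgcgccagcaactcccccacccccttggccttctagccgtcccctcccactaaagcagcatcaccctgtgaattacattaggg
Lama2, chr10:27616893-27617192, minus strand: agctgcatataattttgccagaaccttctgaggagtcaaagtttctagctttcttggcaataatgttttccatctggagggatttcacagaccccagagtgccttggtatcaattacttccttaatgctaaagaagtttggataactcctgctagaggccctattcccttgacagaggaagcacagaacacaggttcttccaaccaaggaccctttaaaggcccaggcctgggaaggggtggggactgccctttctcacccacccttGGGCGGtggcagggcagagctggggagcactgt
Nid1, chr13:13437352-13437651, plus strand: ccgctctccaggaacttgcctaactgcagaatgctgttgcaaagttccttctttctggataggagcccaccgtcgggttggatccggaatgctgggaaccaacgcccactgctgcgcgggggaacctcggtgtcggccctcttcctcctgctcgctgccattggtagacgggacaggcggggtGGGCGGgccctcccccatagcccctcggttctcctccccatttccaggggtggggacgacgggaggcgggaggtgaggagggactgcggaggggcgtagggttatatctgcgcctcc
The Lama5 window held 2 E-boxes and 4 GC boxes, that of Itgb8 1 E-box and no GC box, and those of Lama2 and Nid1 no E-box and 1 GC box each. The share of G and C was 72.7% for Lama5, 60.7% for Itgb8, 50.3% for Lama2 and 64.7% for Nid1, against a median of 52.7% over all promoters. Promoters of 27 of the 38 genes were matched, 34 windows in all. Of these windows 10 (29.4%) held the E-box and 18 (52.9%) the GC box, while 20.2% and 35.7% of all 32851 promoters did so. The E-box was found in genes of both sides. Itga3, Itgb8, Lama5 and Npnt, called higher in both sorts, held it. So did Frem1 and Itgb5, lower in the Sox10 and EpCAM sort, and Itga11, lower in the pooled fit. The rest were Itga9 and Lamb3, not called, and Itgb6, not tested. Agrn and Itga2, higher in both sorts, held the GC box without the E-box.

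Among the laminin alpha chains, which decide what a laminin binds, Lama1, Lama3 and Lama5 separated fMaSC from stroma in both sorts. Lama2 and Lama4 did so in the Sox10 and EpCAM sort only. Lama5, the alpha chain of laminins under most mature epithelia, was the leading alpha chain of Sox10+EpCAM+ fMaSC. Lama5 had 29.4 and 28.5 FPKM in Sox10+EpCAM+ fMaSC and 13.9 and 13.1 FPKM in CD24+CD49f+ fMaSC, against 2.85 FPKM in EpCAM-negative stroma and 2.41 and 1.84 FPKM in CD24low stroma. The groups did not overlap, and the log2 fold was 2.96 (SE 0.21, adjusted p = 0.000453) in the Sox10 and EpCAM sort and 2.22 (SE 0.17, adjusted p = 0.00121) in the CD24 and CD49f sort. Lama1, the chain of early embryonic basement membranes, was near 0 in stroma. Lama1 had 3.93 and 5.16 FPKM in Sox10+EpCAM+ fMaSC and 1.34 and 3.16 FPKM in CD24+CD49f+ fMaSC, against 0.0804 FPKM in EpCAM-negative stroma and 0.0848 and 0.0341 FPKM in CD24low stroma. Its pooled fold was 1.88 (SE 0.27, adjusted p = 0.00427). Lama3, part of the laminin that hemidesmosomes attach to, was also higher in fMaSC. Lama3 had 2.28 and 2.78 FPKM in Sox10+EpCAM+ fMaSC and 1.26 and 1.55 FPKM in CD24+CD49f+ fMaSC, against 0.327 FPKM in EpCAM-negative stroma and 0.341 and 0.290 FPKM in CD24low stroma. The groups did not overlap, and the pooled fold was 1.08 (SE 0.17, adjusted p = 0.00603). The pooled calls of these 3 chains held without each library and under each alternative setting. In the CD24 and CD49f sort, the calls of Lama1 and Lama3 were lost without either Sox10+EpCAM+ fMaSC or either CD24low stroma library, with adjusted p-values of up to 0.147 and 0.138.

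Lama2 and Lama4 form the laminins of muscle, nerve, fat and vessels, and in the Sox10 and EpCAM sort both were lower in fMaSC. Lama2 had 0.143 and 0.406 FPKM in Sox10+EpCAM+ fMaSC and 5.43 and 11.8 FPKM in CD24+CD49f+ fMaSC, against 11.1 FPKM in EpCAM-negative stroma and 14.2 and 7.32 FPKM in CD24low stroma. The Sox10+EpCAM+ fMaSC libraries stood apart at under 1 FPKM, while those of CD24+CD49f+ fMaSC overlapped with stroma. The log2 fold was -3.25 (SE 0.51, adjusted p = 0.00632) in the Sox10 and EpCAM sort and -0.31 (SE 0.42, adjusted p = 0.688) in the CD24 and CD49f sort. Lama4 had 12.5 and 16.5 FPKM in Sox10+EpCAM+ fMaSC and 23.1 and 42.3 FPKM in CD24+CD49f+ fMaSC, against 51.6 FPKM in EpCAM-negative stroma and 48.9 and 39.2 FPKM in CD24low stroma. The Sox10+EpCAM+ fMaSC libraries were again lowest, with a fold of -1.77 (SE 0.39, adjusted p = 0.0219) that was lost without either of them (adjusted p of up to 0.123). In the CD24 and CD49f sort the fold of Lama4 was -0.47 (SE 0.32, adjusted p = 0.427). Summed adipocyte-lineage markers were 24.6 and 19.02 FPKM in Sox10+EpCAM+ fMaSC and 567 and 244 FPKM in CD24+CD49f+ fMaSC, against 779 FPKM in EpCAM-negative stroma and 1008 and 1284 FPKM in CD24low stroma. All 6 reached 1 FPKM in each library of CD24+CD49f+ fMaSC and of the stroma groups, and 3 did so in both Sox10+EpCAM+ fMaSC libraries. Summed endothelial markers were 9.65 and 10.2 FPKM in Sox10+EpCAM+ fMaSC and 48.1 and 39.9 FPKM in CD24+CD49f+ fMaSC, against 26.1 FPKM in EpCAM-negative stroma and 42.1 and 37.4 FPKM in CD24low stroma. Of these 10 markers, 2 reached 1 FPKM in both Sox10+EpCAM+ fMaSC libraries and 9 in both CD24+CD49f+ fMaSC libraries, against 8 in each stroma group. The part of the adipocyte, endothelial, pericyte and fibroblast markers in the levels of Lama2 and Lama4 was not tested.

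Lamb1 and Lamc1, the beta and gamma chains shared by most laminins, gave no call. Lamb1 had 49.1 and 60.2 FPKM in Sox10+EpCAM+ fMaSC and 66.05 and 94.4 FPKM in CD24+CD49f+ fMaSC, against 88.1 FPKM in EpCAM-negative stroma and 93.97 and 67.6 FPKM in CD24low stroma. Its pooled difference was -0.28 on the log2 scale, with a 95% interval of -0.86 to 0.30. Lamc1 had 67.3 and 86.1 FPKM in Sox10+EpCAM+ fMaSC and 65.1 and 108 FPKM in CD24+CD49f+ fMaSC, against 92.8 FPKM in EpCAM-negative stroma and 94.9 and 65.1 FPKM in CD24low stroma. Its pooled difference was -0.06, with a 95% interval of -0.67 to 0.55. For both genes the fMaSC and stroma libraries overlapped. Lamb2, a beta chain of muscle and vessel basement membranes, was lower in Sox10+EpCAM+ fMaSC than in EpCAM-negative stroma. Lamb2 had 4.68 and 5.19 FPKM in Sox10+EpCAM+ fMaSC and 8.63 and 14.1 FPKM in CD24+CD49f+ fMaSC, against 18.8 FPKM in EpCAM-negative stroma and 18.1 and 11.7 FPKM in CD24low stroma. Its fold was -1.74 (SE 0.36, adjusted p = 0.0171) in the Sox10 and EpCAM sort, lost without either Sox10+EpCAM+ fMaSC library (adjusted p of up to 0.093), and -0.37 (SE 0.29, adjusted p = 0.502) in the CD24 and CD49f sort. Lamb3, the hemidesmosomal partner of Lama3, was low throughout, with 0.751 and 1.38 FPKM in Sox10+EpCAM+ fMaSC and 0.815 and 0.694 FPKM in CD24+CD49f+ fMaSC, against 0.401 FPKM in EpCAM-negative stroma and 0.818 and 1.19 FPKM in CD24low stroma. It was not called, with a pooled fold of 0.10 (SE 0.21, adjusted p = 0.734). Lamc3 was not tested. It lay between 0.0234 and 0.389 FPKM in 6 libraries and at 2.76 FPKM in CD24+CD49f+ fMaSC replicate 2.

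As shares of the summed FPKM of the 5 alpha chains, Lama5 held 60.9% and 53.5% in Sox10+EpCAM+ fMaSC and 30.97% and 18.2% in CD24+CD49f+ fMaSC, against 4.33% in EpCAM-negative stroma and 3.66% and 3.79% in CD24low stroma. Lama4 held 25.96% and 30.9% in Sox10+EpCAM+ fMaSC and 51.2% and 58.8% in CD24+CD49f+ fMaSC, against 78.2% in EpCAM-negative stroma and 74.2% and 80.5% in CD24low stroma. Lama2 held 0.297% and 0.761% in Sox10+EpCAM+ fMaSC and 12.05% and 16.4% in CD24+CD49f+ fMaSC, against 16.8% in EpCAM-negative stroma and 21.5% and 15.03% in CD24low stroma. The Sox10+EpCAM+ fMaSC libraries were thus led by Lama5 and the stroma libraries by Lama4, with CD24+CD49f+ fMaSC between them and led by Lama4. Lamb1 held 82.1% to 90.2% of the summed FPKM of the 3 beta chains in the 7 libraries. These shares are descriptions with no test.

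**Figure D3:**
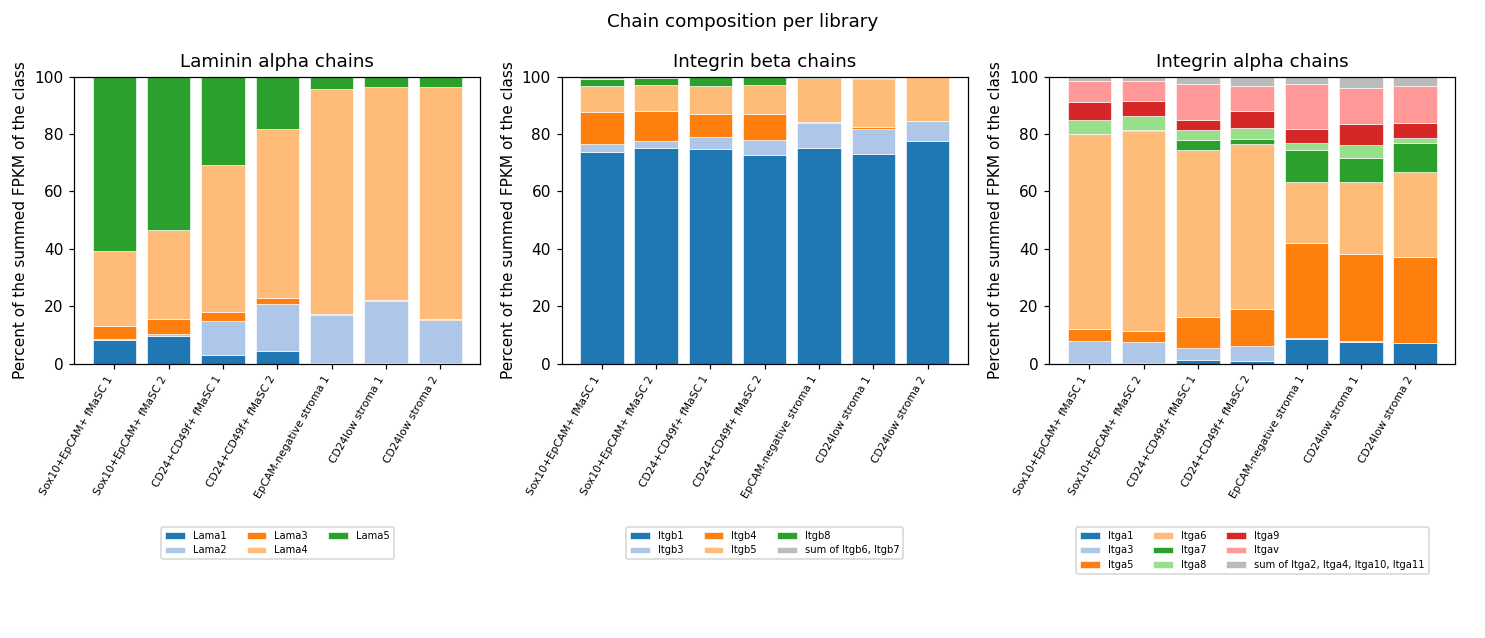
Percent of the summed FPKM (y axis) that each chain holds among the laminin alpha, integrin beta and integrin alpha chains, with 1 bar per library (x axis, with the replicate number). Lama5 takes 60.9% and 53.5% in Sox10+EpCAM+ fMaSC and 4.33% in EpCAM-negative stroma, Itgb1 stays between 72.7% and 77.7%, and Itga6 takes 67.9% and 69.9% in Sox10+EpCAM+ fMaSC and 21.3% in EpCAM-negative stroma.

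The nidogens, which link the laminin and collagen networks and are known as products of mesenchyme, had the most negative folds of the 34 genes in the Sox10 and EpCAM sort. Nid1 (chr13:13437602-13512275) had the highest FPKM of the 38 genes in each stroma library. Nid1 had 2.88 and 4.72 FPKM in Sox10+EpCAM+ fMaSC and 70.5 and 145 FPKM in CD24+CD49f+ fMaSC, against 179.9 FPKM in EpCAM-negative stroma and 278 and 236 FPKM in CD24low stroma. The Sox10+EpCAM+ fMaSC libraries held 1.12% and 1.84% of the CD24low stroma mean, and the log2 fold was -5.26 (SE 0.47, adjusted p = 0.000985). In the CD24 and CD49f sort the fMaSC libraries were also below stroma, with a fold of -1.33 (SE 0.39, adjusted p = 0.088) that was not called. Nid2 (chr14:19751257-19811787) had the same order of groups in the Sox10 and EpCAM sort. Nid2 had 0.943 and 1.91 FPKM in Sox10+EpCAM+ fMaSC and 21.9 and 42.6 FPKM in CD24+CD49f+ fMaSC, against 36.8 FPKM in EpCAM-negative stroma and 46.3 and 39.03 FPKM in CD24low stroma. Its log2 fold was -3.99 (SE 0.44, adjusted p = 0.00183) there and -0.46 (SE 0.36, adjusted p = 0.485) in the CD24 and CD49f sort, where the libraries overlapped. Over both sorts, the fold was -2.90 (SE 0.78, adjusted p = 0.0378) for Nid1 and -1.87 (SE 0.71, adjusted p = 0.093) for Nid2. The pooled call of Nid1 was lost without any of 5 of the 7 libraries, CD24+CD49f+ fMaSC replicate 2 and CD24low stroma replicate 2 being the exceptions, with adjusted p-values of up to 0.097.

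The 2 basement membrane heparan sulphate proteoglycans lay on opposite sides. Hspg2 encodes perlecan and was lower in Sox10+EpCAM+ fMaSC than in EpCAM-negative stroma. Hspg2 had 15.99 and 20.8 FPKM in Sox10+EpCAM+ fMaSC and 48.3 and 68.1 FPKM in CD24+CD49f+ fMaSC, against 101 FPKM in EpCAM-negative stroma and 86.5 and 53.6 FPKM in CD24low stroma. Its fold was -2.40 (SE 0.38, adjusted p = 0.00666), lost without Sox10+EpCAM+ fMaSC replicate 1 (adjusted p = 0.051), and -0.24 (SE 0.31, adjusted p = 0.671) in the CD24 and CD49f sort. Agrn encodes agrin, which binds laminin and dystroglycan, and was higher in fMaSC. Agrn had 63.6 and 77.3 FPKM in Sox10+EpCAM+ fMaSC and 46.9 and 57.8 FPKM in CD24+CD49f+ fMaSC, against 17.3 FPKM in EpCAM-negative stroma and 15.2 and 12.02 FPKM in CD24low stroma. The groups did not overlap, and the fold was 1.96 (SE 0.27, adjusted p = 0.00391) in the Sox10 and EpCAM sort and 1.87 (SE 0.22, adjusted p = 0.00508) in the CD24 and CD49f sort. The call of Agrn in the CD24 and CD49f sort was lost without CD24low stroma replicate 2 (adjusted p = 0.0546). Dag1, the dystroglycan that agrin, perlecan and laminins bind, was higher in Sox10+EpCAM+ fMaSC than in EpCAM-negative stroma. Dag1 had 66.6 and 85.9 FPKM in Sox10+EpCAM+ fMaSC and 43.1 and 74.8 FPKM in CD24+CD49f+ fMaSC, against 23.7 FPKM in EpCAM-negative stroma and 43.3 and 29.1 FPKM in CD24low stroma. Its log2 fold was 1.63 (SE 0.42, adjusted p = 0.035) in the Sox10 and EpCAM sort and 1.05 (SE 0.31, adjusted p = 0.0478) over both sorts. The first call was lost without either Sox10+EpCAM+ fMaSC or either CD24low stroma library, and the second without 5 of the 7 libraries and under each of the 4 alternative settings, with adjusted p-values of up to 0.153 and 0.297 without a library. The 2 libraries without which the pooled call stayed were CD24+CD49f+ fMaSC replicate 1 and CD24low stroma replicate 1.

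**Figure D4:**
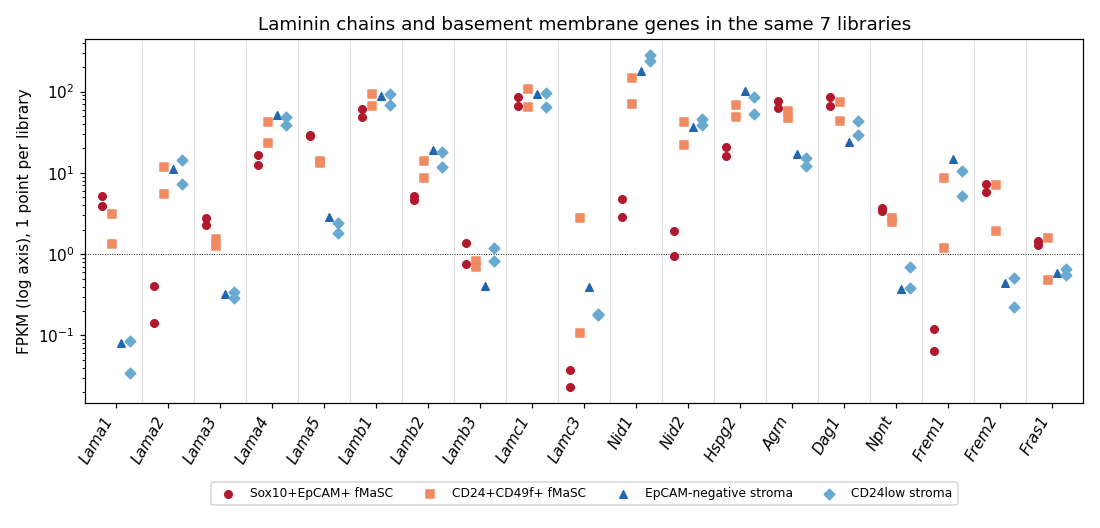
FPKM on a log axis (y) of the 10 laminin chains and 9 further basement membrane genes (x), 1 point per library, with circles and squares for the fMaSC groups, triangles and diamonds for the stroma groups and a dotted line at 1 FPKM. Lama5 and Agrn lie higher in all 4 fMaSC libraries than in the stroma libraries, Lamb1 and Lamc1 overlap, and Nid1 falls to 2.88 and 4.72 FPKM in Sox10+EpCAM+ fMaSC, against 179.9 FPKM in EpCAM-negative stroma.

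Npnt encodes nephronectin, a basement membrane ligand of the integrin with the Itga8 chain. Npnt had 3.70 and 3.41 FPKM in Sox10+EpCAM+ fMaSC and 2.46 and 2.80 FPKM in CD24+CD49f+ fMaSC, against 0.369 FPKM in EpCAM-negative stroma and 0.690 and 0.386 FPKM in CD24low stroma. Ligand and receptor chain were each above stroma in all 4 fMaSC libraries, and the fold of Npnt was 1.73 (SE 0.21, adjusted p = 0.00258) in the Sox10 and EpCAM sort and 1.24 (SE 0.17, adjusted p = 0.00867) in the CD24 and CD49f sort. The call of Npnt in the CD24 and CD49f sort was lost without CD24low stroma replicate 2 (adjusted p = 0.0712). Frem1, Frem2 and Fras1 encode the Fraser complex, which holds epidermis and dermis together in the embryo. Frem2 had 5.84 and 7.38 FPKM in Sox10+EpCAM+ fMaSC and 1.95 and 7.06 FPKM in CD24+CD49f+ fMaSC, against 0.438 FPKM in EpCAM-negative stroma and 0.504 and 0.223 FPKM in CD24low stroma. The pooled fold was 2.07 (SE 0.35, adjusted p = 0.00836), lost without the EpCAM-negative stroma library (adjusted p = 0.0569), and in the Sox10 and EpCAM sort 2.40 (SE 0.56, adjusted p = 0.026), lost without either Sox10+EpCAM+ fMaSC or either CD24low stroma library (adjusted p of up to 0.103). Frem1, known as the mesenchymal member of the complex, went the other way in that sort. Frem1 had 0.0639 and 0.121 FPKM in Sox10+EpCAM+ fMaSC and 1.20 and 8.53 FPKM in CD24+CD49f+ fMaSC, against 14.8 FPKM in EpCAM-negative stroma and 10.6 and 5.25 FPKM in CD24low stroma. Its fold was -3.85 (SE 0.83, adjusted p = 0.0195), lost without either Sox10+EpCAM+ fMaSC library (adjusted p of up to 0.0817). Fras1 had 1.28 and 1.45 FPKM in Sox10+EpCAM+ fMaSC and 0.481 and 1.57 FPKM in CD24+CD49f+ fMaSC, against 0.580 FPKM in EpCAM-negative stroma and 0.663 and 0.550 FPKM in CD24low stroma. Fras1 was not called, with a pooled fold of 0.40 (SE 0.22, adjusted p = 0.196).

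The design compares the sorting strategies themselves. Between the fMaSC fractions, 1 gene was higher and 8 were lower in Sox10+EpCAM+ fMaSC than in CD24+CD49f+ fMaSC, beside 1.95% and 8.04% of all tested genes. The higher gene was Lama5, with a log2 fold of 1.05 (SE 0.17, adjusted p = 0.0165). The lower genes were Nid1, with -4.44 (SE 0.39, adjusted p = 0.00257), Nid2, with -3.73 (SE 0.36, adjusted p = 0.00326), Lama2, with -2.84 (SE 0.42, adjusted p = 0.0122), and Itga7, with -1.91 (SE 0.20, adjusted p = 0.00406). Hspg2, Itga4, Itga1 and Itga5 followed, with log2 folds of -1.60, -1.39, -1.27 and -1.12 and adjusted p-values of 0.0313, 0.0245, 0.0126 and 0.0467. Nid1 and Nid2 kept their calls without each library. The others lost them without Sox10+EpCAM+ fMaSC replicate 1, and all of these but Itga7 also without Sox10+EpCAM+ fMaSC replicate 2, with adjusted p-values of up to 0.304. Hspg2 and Itga5 also lost their calls without CD24+CD49f+ fMaSC replicate 2, and Itga5 without either CD24low stroma library. Without either Sox10+EpCAM+ fMaSC library fewer of these genes were called, and the shares over all tested genes fell too. With no filter on low values 1 gene was higher and 3 were lower, beside 0.608% and 2.0% of all tested genes. The counts were 0 and 4 with TPM scaling, beside 0.0902% and 3.59%, and 3 and 5 with quantile scaling, beside 3.65% and 5.66%. Set against the CD24low stroma mean, Nid1 stood at 27.4% and 56.3% in the CD24+CD49f+ fMaSC libraries, Itga1 at 28.0% and 31.5%, Nid2 at 51.3% and 99.9%, Hspg2 at 68.97% and 97.2% and Itga5 at 59.99% and 93.4%. In the same libraries Itga7 stood at 63.5% and 43.6%, Lama2 at 50.4% and 109.9% and Itga4 at 145.7% and 256.7%. Summed fibroblast markers stood at 0.657% and 1.02% of that mean in Sox10+EpCAM+ fMaSC and at 28.7% and 46.6% in CD24+CD49f+ fMaSC. Summed endothelial markers stood at 24.3% and 25.6% in Sox10+EpCAM+ fMaSC and at 121% and 100.3% in CD24+CD49f+ fMaSC, and summed adipocyte-lineage markers at 2.14% and 1.66% in Sox10+EpCAM+ fMaSC and at 49.5% and 21.3% in CD24+CD49f+ fMaSC. Lower in Sox10+EpCAM+ fMaSC than in CD24+CD49f+ fMaSC were 7 of 7 tested fibroblast markers, 6 of 6 of the adipocyte lineage, 7 of 10 endothelial, 4 of 8 pericyte and smooth muscle, 6 of 9 Schwann cell and melanoblast, 1 of 3 skeletal muscle and 1 of 6 leukocyte markers, and none of these was higher. None of 5 tested mast cell, 3 erythroid and platelet and 2 epidermal markers was called in either direction. Of 8 epithelial markers 2 were higher and none lower. The part of these markers in the calls between the fMaSC fractions was not tested.

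**Figure D5:**
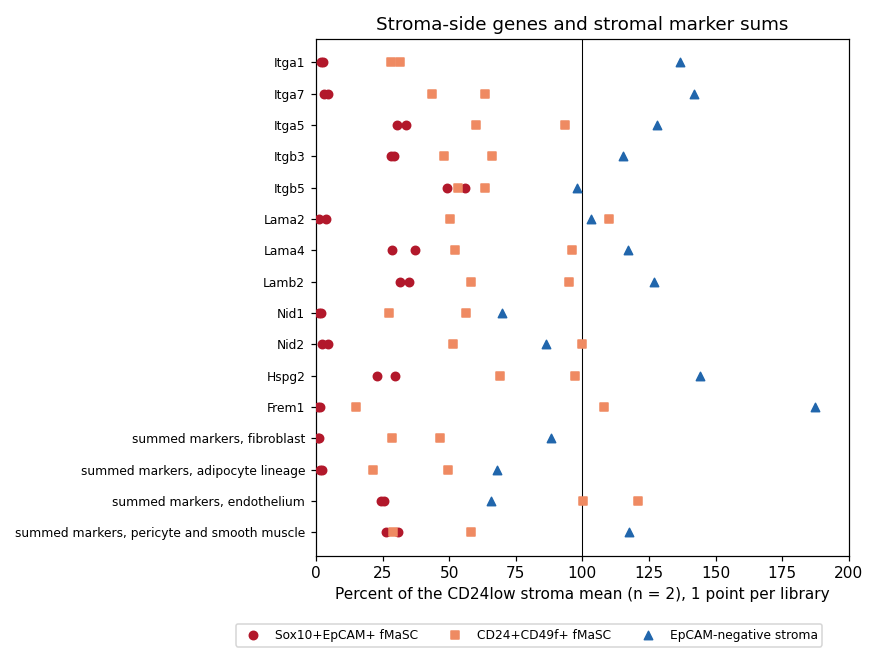
Percent of the CD24low stroma mean (x axis) for the 12 genes called lower in Sox10+EpCAM+ fMaSC than in EpCAM-negative stroma and for 4 summed marker lists (y axis), 1 point per library, with a line at 100%. The Sox10+EpCAM+ fMaSC points of Nid1 lie at 1.12% and 1.84% beside fibroblast sums of 0.657% and 1.02%, and the CD24+CD49f+ fMaSC points of Nid1 at 27.4% and 56.3% beside fibroblast sums of 28.7% and 46.6%. The CD24+CD49f+ fMaSC points of Lama2 lie at 50.4% and 109.9% and those of Itga7 at 63.5% and 43.6%.

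Between the stroma fractions, none of the 34 genes was called by limma in EpCAM-negative stroma against CD24low stroma, and none had an unadjusted p under 0.05. Of all tested genes 0.0139% were higher and 0.0139% lower there, in a comparison of 1 library with 2. The difference between the fMaSC-to-stroma folds of the strategies, the Sox10 and EpCAM sort minus the CD24 and CD49f sort, was called for 3 genes, all lower, beside 0.0763% higher and 1.44% lower of all tested genes. It was -3.93 (SE 0.61, adjusted p = 0.0457) for Nid1, -2.36 (SE 0.31, adjusted p = 0.0318) for Itga7 and -3.53 (SE 0.56, adjusted p = 0.04995) for Nid2. Each of these 3 calls was lost without either Sox10+EpCAM+ fMaSC or either CD24low stroma library, with adjusted p-values of up to 0.254, and 10 genes were called, all lower, without CD24+CD49f+ fMaSC replicate 1, beside 1.13% and 5.7% of all tested genes higher and lower. For Hspg2, Lama2 and Itga1, the difference was -2.16 (SE 0.49, adjusted p = 0.121), -2.94 (SE 0.66, adjusted p = 0.116) and -1.67 (SE 0.30, adjusted p = 0.0654). For Itga6, Itga3 and Itgb4 it was 0.67 (SE 0.36, adjusted p = 0.483), 0.84 (SE 0.37, adjusted p = 0.375) and 0.32 (SE 0.39, adjusted p = 0.752).

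Genes that work with these chains were taken from 6 lists, with examples chosen by the size of the pooled fold. Of all tested genes, 15.6% were higher and 9.5% lower in the pooled fit. The shares were 12.5% and 13.6% in the Sox10 and EpCAM sort and 7.78% and 2.94% in the CD24 and CD49f sort. Of 8 hemidesmosome genes and laminin-receptor partners, 4 were higher in fMaSC and none lower, in each sort and in the pooled fit. They were Col17a1, the hemidesmosome collagen, with a pooled log2 fold of 2.27 (SE 0.22, adjusted p = 0.000924), the syndecan Sdc4 with 1.75 (SE 0.19, adjusted p = 0.00132), the Lutheran laminin receptor Bcam with 1.58 (SE 0.16, adjusted p = 0.00106) and the tetraspanin Cd151, a partner of laminin-binding integrins, with 1.35 (SE 0.20, adjusted p = 0.00542). These 4 pooled calls held without each library. Of 23 tested adaptors and focal adhesion genes, 5 were higher and 3 lower in the pooled fit, beside 15.6% and 9.5% of all tested genes. Fermt1, the epithelial kindlin that activates integrins, had a fold of 2.48 (SE 0.25, adjusted p = 0.00106), and the kinases Ptk2b and Src had 1.94 (SE 0.29, adjusted p = 0.00527) and 1.35 (SE 0.14, adjusted p = 0.00118). Tns1, a tensin, had -2.15 (SE 0.61, adjusted p = 0.0433). Of 14 tested basement membrane genes outside the 38, 4 were higher and 2 lower, beside the same shares of all tested genes. Among them were the type IV collagen chain Col4a6 with 1.63 (SE 0.18, adjusted p = 0.00149), Tinagl1 with 1.51 (SE 0.18, adjusted p = 0.00219), Sparc with -2.32 (SE 0.60, adjusted p = 0.0333) and Smoc1 with -1.80 (SE 0.46, adjusted p = 0.0316).

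Of 13 tested genes of the dystroglycan complex and its glycosylation, 2 were higher and 2 lower in the pooled fit, beside 15.6% and 9.5% of all tested genes. Dystrophin (Dmd) had a fold of 1.03 (SE 0.16, adjusted p = 0.00561), the sarcoglycan Sgce -1.61 (SE 0.47, adjusted p = 0.0466) and sarcospan (Sspn) -0.93 (SE 0.17, adjusted p = 0.0104). Of 22 tested further ligands of integrins, 2 were higher and 9 lower over both sorts, beside the same shares. In Sox10+EpCAM+ fMaSC against EpCAM-negative stroma 2 were higher and 11 lower, beside 12.5% and 13.6% of all tested genes. The fibrillar collagens Col1a1, Col1a2 and Col3a1 and periostin (Postn) had pooled folds of -3.69 (SE 1.09, adjusted p = 0.0481), -3.60 (SE 1.08, adjusted p = 0.0499), -3.47 (SE 1.03, adjusted p = 0.0494) and -3.46 (SE 1.00, adjusted p = 0.0452). Col1a1 and Col1a2 are also among the fibroblast markers. Of 7 leukocyte and platelet integrins 1 was tested, Itga2b, with -0.72 (SE 0.18, adjusted p = 0.0308). Among the genes named from these 6 lists, the calls of Tns1, Sparc, Smoc1, Sgce, Sspn, Col1a1, Col1a2, Col3a1, Postn and Itga2b were lost without at least 1 library, with adjusted p-values of up to 0.173. For each of the 10 the EpCAM-negative stroma library was such a library, and for each but Sspn also either Sox10+EpCAM+ fMaSC library. Each of the 10 also lost its call under at least 1 of the 4 alternative settings, and Dmd and Src lost theirs with TPM scaling (adjusted p = 0.206 and 0.126). Over all tested members of the lists, the median pooled log2 fold was 1.03 for the hemidesmosome list, 0.07 for the adaptors, -0.57 for the basement membrane genes, -0.05 for the dystroglycan list and -0.86 for the ligands, against 0.12 over all tested genes.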

How the data were processed

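RNA was prepared with TruSeq kits from the sorted cells and sequenced as 100-base paired ends, per the labels' protocols. Per the submitters' processing notes, STAR and Cufflinks were used with GRCm38/mm10; versions are not given in the sources used here. The deposited table gives FPKM per gene and library, per the file headers, without counts, and all 7 library columns were used. Symbols were matched ignoring case (9 of the 38 also matched in case). Coordinates are the table's, shifted to count from 1.

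The values computed here start from log2(FPKM + 1). The 14418 genes that reached 1 FPKM in 2 or more libraries entered limma 3.58.1 in R 4.3.3, with 4 group means (3 residual degrees of freedom), or cell type plus sorting strategy (4) for the pooled comparison, an empirical Bayes trend and all 7 libraries. P-values are two-sided and were adjusted by the Benjamini-Hochberg method over all tested genes, with a threshold of 0.05. The difference between strategies was a contrast of both folds. The fit was checked on simulated data.

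Depth was estimated from values of few fragments on single-transcript genes of 800 to 6000 bases, of which 72.2% to 79.3% came within 0.15 of a whole number. Summed FPKM ran from 378952 to 752737 per library, and mitochondrial genes held 6.23% to 19.0% of it. Alternatives were a pseudocount of 0.1, no filter, TPM and quantile scaling, and leaving out each library. Leaving out both CD24+CD49f+ fMaSC libraries, and joining the 3 stroma libraries in 1 group, were chosen after seeing the data. The members and the gene lists were chosen with earlier results of these data known. All 38 members are reported, and from each further list up to 4 called genes with the largest pooled fold, of which 1 is not reported here. Of 216 list genes 1 was not found by name. A Sox10 overexpression experiment mentioned in the labels is not analysed here. Python 3.11.15 with matplotlib 3.10.9, numpy 2.4.6 and pandas 2.3.3 made the other tables and the plots.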

Additional observations from a re-analysis of the deposited data

Results flagged for a closer look

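For Nid1, Itga7 and Nid2, the fMaSC-to-stroma fold of the Sox10 and EpCAM sort differed from that of the CD24 and CD49f sort by the test of the difference itself. The difference was -3.93 on the log2 scale for Nid1 (SE 0.61, limma adjusted p = 0.0457), -2.36 for Itga7 (SE 0.31, adjusted p = 0.0318) and -3.53 for Nid2 (SE 0.56, adjusted p = 0.04995). Both folds were negative for each gene: -5.26 in the Sox10 and EpCAM sort and -1.33 in the CD24 and CD49f sort for Nid1, -3.13 and -0.77 for Itga7, and -3.99 and -0.46 for Nid2. The 3 adjusted p-values ranged up to 0.254 for Nid1, 0.207 for Itga7 and 0.237 for Nid2 when 1 library was left out. Fibroblast marker sums stood at 0.657% and 1.02% of the CD24low stroma mean in Sox10+EpCAM+ fMaSC and at 28.7% and 46.6% in CD24+CD49f+ fMaSC. Endothelial marker sums stood at 24.3% and 25.6% in Sox10+EpCAM+ fMaSC and at 121% and 100.3% in CD24+CD49f+ fMaSC. The part of both lists in these differences was not tested.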

How the results depend on the processing

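Counts are of the 34 tested genes called by limma. With TPM scaling, 15 were called in the Sox10 and EpCAM sort against 24 as reported, 4 in the CD24 and CD49f sort against 11, 4 between the fMaSC fractions against 9 and 0 for the difference between strategies against 3. Of all tested genes, 4.12% were then higher and 11.2% lower in the first of these comparisons. The shares were 3.0% and 0.853% in the second, 0.0902% and 3.59% in the third and 0.0624% and 0.347% in the last. That scaling moved the median log2 fold of all tested genes to -0.63, -0.12, -0.23 and -0.51 in these comparisons, and to -0.32 in the pooled fit. Relative to that median, the pooled fold of Itgb1 was -0.32 with TPM scaling and -0.26 as reported. With no filter on low values, which tests more genes, 4 were called between the fMaSC fractions, beside 0.608% higher and 2.0% lower of all tested genes. For the difference 0 were called then, beside 0.0827% and 0.831%, and 0 with quantile scaling, beside 0.0832% and 0.638%. At an unadjusted p under 0.05 the difference had 9 genes with TPM scaling, 12 with no filter and 17 with quantile scaling. No share of all tested genes at that unadjusted threshold was computed, so these counts cannot be judged against it. Leaving out 1 library at a time gave 15 to 28 called genes in the Sox10 and EpCAM sort, 5 to 16 in the CD24 and CD49f sort, 11 to 25 in the pooled fit (11 where, without the EpCAM-negative stroma library, it is the CD24 and CD49f sort alone), 2 to 13 between the fMaSC fractions and 0 to 10 for the difference, where 8 to 21 had an unadjusted p under 0.05. The stroma fractions gave 0 in each case. Shares of all tested genes (higher and lower) moved too, from the fewest to the most called genes. In the Sox10 and EpCAM sort they went from 5.8% and 5.96% up to 21.5% and 18.9%. In the CD24 and CD49f sort they went from 2.59% and 0.384% to 10.4% and 6.09%. They went from 7.91% and 3.04% to 27.1% and 17.6% in the pooled fit. Between the fMaSC fractions they went from 0.162% and 1.73% to 5.18% and 12.4%. For the difference they went from at most 0.0281% each to 1.13% and 5.7%. Called in every leave-one-out fit were 15 of 24 genes, 4 of 11, 11 of 19 (pooled), 2 of 9 and 0 of 3. Joining the 3 stroma libraries as 1 group, an alternative added after seeing the data, gave 14 higher and 14 lower genes in the Sox10 and EpCAM sort, beside 22.5% and 20.7% of all tested genes. The fold of Itga4 in the pooled fit, 0.06, is -0.77 without both CD24+CD49f+ fMaSC libraries, where by construction it is the fold of the Sox10 and EpCAM sort. The shares called over all tested genes also moved with scaling and with left-out libraries, and the causes of these changes were not tested. No paired analysis was possible because the labels give the libraries no shared numbers and the replicate numbers used here are only names in accession order. Groups of 1 or 2 libraries limit what can be called, and without counts the depth behind each value is an estimate.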
